A study of Mus musculus with 8 samples.

Results

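The genes described here mark starburst amacrine cells or act at their synapses and were picked by symbol: Chat, Slc18a3, Slc5a7, Ache, Megf10 and Megf11. Of these 6 genes, 5 were found by symbol among the 16109 genes of the deposited count table, and Slc18a3 was not analysed here. Messenger RNA had been sequenced from mouse retina at postnatal day 5, with 4 libraries under the label WT (wild type) and 4 under the label C3 KO, for a knockout of complement component C3. All 8 are given as retina of C57BL/6 mice. Hyaloid vessels were taken off during dissection, and neither the design of the C3 allele nor the number of animals per library is given, so p-values measure the spread between these libraries.

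Starburst amacrine cells are the cholinergic neurons of the retina. They sit in mirror-image mosaics on either side of the inner plexiform layer, drive the spontaneous waves of activity that cross the retina in the days after birth, and later compute the direction of motion. Choline enters the cell through the high-affinity transporter encoded by Slc5a7, is acetylated by choline acetyltransferase (Chat), is loaded into vesicles by the transporter encoded by Slc18a3, and after release the acetylcholine is split by acetylcholinesterase (Ache). Megf10 and Megf11 encode transmembrane proteins with repeated EGF-like domains. Through them neighbouring cells of one type space themselves out in the starburst and horizontal cell mosaics, and MEGF10 also serves glia as an engulfment receptor.

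The libraries held 16503564 to 19608824 counted reads. C3 itself stood at 1.75 to 3.32 CPM (counts scaled to a common library size) in WT-labelled and at 80.6 to 87.5 CPM in C3 KO-labelled libraries, the reverse of what the labels name. Groups are therefore called by their labels, and every direction below rests on them. Sex-linked RNA moved with the labels as well. Xist, which coats the silenced X chromosome, was at 295 to 2441 CPM in WT-labelled and at 1.48 to 2.65 CPM in C3 KO-labelled libraries, while the library labelled WT replicate 3 carried the Y-linked Ddx3y at 113 CPM, a level like the 100.4 to 118 CPM of the libraries labelled C3 KO. Of 14 pigment epithelium markers tested, 10 passed with more RNA in the libraries labelled C3 KO, none passed with less, and 4 did not pass. The 14 summed to 108 to 167 CPM in WT-labelled and to 299.8 to 330.5 CPM in C3 KO-labelled libraries. All 5 red blood cell genes tested passed in the other direction. Over all tested genes the shares called were 8.33% higher and 5.98% lower. Retina identity was present in every library, with 8 of 8 listed transcription factor and photoreceptor genes measured. Among them Rax and Crx were called lower under the C3 KO label, with log2 fold changes of -0.40 and -0.22. The part of these shifts in the results below was not tested. In whole retina, more starburst cells and more RNA per cell cannot be told apart.

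The windows around the annotated starts of the measured transmitter genes are shown because these genes carry the cholinergic identity of the cell and their values are compared below. The sequences are those of RefSeq on GRCm38.p6, from 250 bases before to 50 bases after the start, 5′ to 3′ on the gene's strand. Windows were taken for 4 of the 6 genes, all but Megf10 and Megf11. Capitals mark matches to the motifs searched on both strands: CCAAT (the CCAAT box), GGGCGG (the GC box), TATAAA (the TATA box), TAATTA (a homeodomain core) and CAGCACC (a half-site of the RE1 silencer element). The window of Chat is chr14:32465860-32466159, minus strand, that of Slc5a7 chr17:54298985-54299284, minus strand, and that of Ache chr5:137288004-137288303, plus strand.
Chat: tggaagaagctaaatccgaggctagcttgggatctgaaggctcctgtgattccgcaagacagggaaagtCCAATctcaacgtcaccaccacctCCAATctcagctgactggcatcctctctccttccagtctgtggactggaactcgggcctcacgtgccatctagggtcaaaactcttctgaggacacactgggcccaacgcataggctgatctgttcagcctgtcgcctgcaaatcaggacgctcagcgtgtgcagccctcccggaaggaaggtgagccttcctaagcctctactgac
Slc5a7: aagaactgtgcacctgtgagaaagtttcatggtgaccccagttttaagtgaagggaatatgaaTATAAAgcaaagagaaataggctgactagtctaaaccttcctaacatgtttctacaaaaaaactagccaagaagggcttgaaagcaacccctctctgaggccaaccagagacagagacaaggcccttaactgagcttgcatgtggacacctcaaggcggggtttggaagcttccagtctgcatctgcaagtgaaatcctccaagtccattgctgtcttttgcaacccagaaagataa
Ache: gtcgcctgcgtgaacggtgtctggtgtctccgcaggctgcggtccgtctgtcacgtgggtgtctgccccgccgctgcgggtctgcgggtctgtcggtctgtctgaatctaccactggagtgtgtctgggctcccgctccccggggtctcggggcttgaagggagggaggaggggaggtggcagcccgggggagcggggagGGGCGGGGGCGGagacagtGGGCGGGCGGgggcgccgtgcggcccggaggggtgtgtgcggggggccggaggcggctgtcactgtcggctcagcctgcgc

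The 3 windows shared none of the searched motifs. Chat held 2 CCAAT boxes, beginning 181 and 157 bases before the start, a motif found in 37.4% of all 32851 windows of this length in the table. Slc5a7 held 1 TATA box 187 bases before the start (13.6% of windows) and Ache held 4 GC boxes within 50 bases before the start, 2 of which overlapped (35.7% of windows). Neither the RE1 half-site (7.14% of windows) nor the homeodomain core (5.29%) is among the letters of these 3 windows. Slc18a3 lies inside the span of Chat in the same annotation, an arrangement known as the cholinergic locus.

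Slc5a7, Megf10 and Megf11 were higher in the libraries labelled C3 KO, and neither Chat nor Ache passed the test. The difference was 1.54-fold for Slc5a7, 1.26-fold for Megf10 and 1.17-fold for Megf11. That is 3 of 5 genes called, against 14.3% of the 15850 genes tested in this comparison. All 3 were called higher, as were 8.33% of tested genes, and none lower, as were 5.98%. Of the 5 log2 fold changes all were above 0, where 50.9% of tested genes were, and their median was 0.34, against 0.0044 over all tested genes. In 4 of the 5 genes every library labelled C3 KO was above every library labelled WT, a pattern seen in 9.65% of tested genes. All 5 measured genes passed the expression filter, and the fewest reads were 94, for Slc5a7 in WT replicate 2. They share these 8 libraries and are not replicates of each other.

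**Figure D1:**
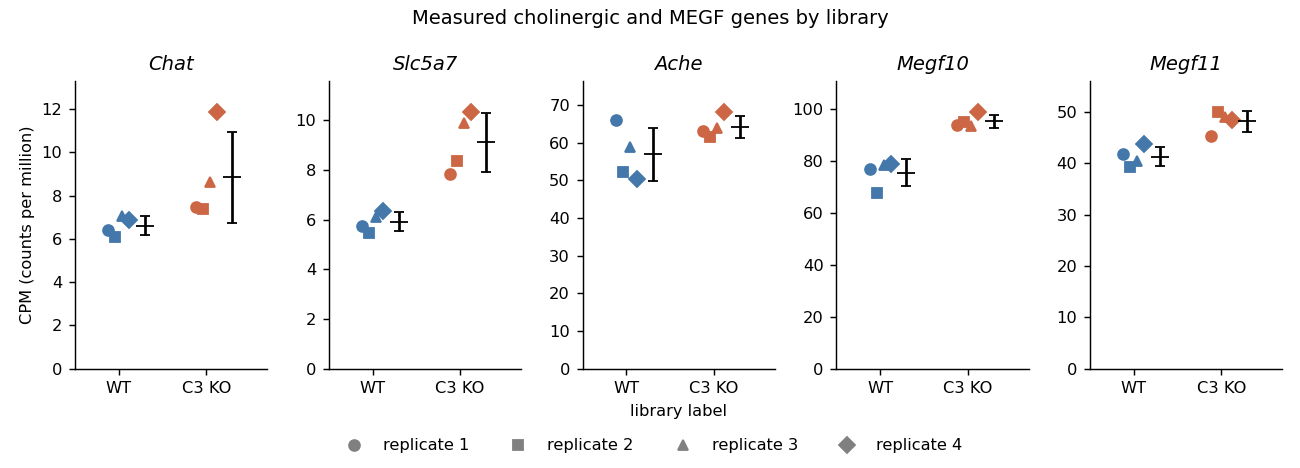
CPM of the 5 measured genes (vertical axes, each from 0) in the libraries labelled WT and C3 KO. Each symbol is 1 library, its shape gives the replicate number, and the bar is the mean with its SD (n = 4). The 2 groups are apart for every gene but Ache, and the library labelled C3 KO replicate 4 is the highest for Chat at 11.9 CPM.

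Transport of choline into the terminal limits how fast acetylcholine can be made, and its transporter gene showed the largest difference of the 5. Slc5a7 had 5.74, 5.47, 6.11 and 6.34 CPM across the WT-labelled replicates 1 to 4. Across the C3 KO-labelled replicates 1 to 4 it had 7.84, 8.38, 9.87 and 10.3 CPM. The groups did not overlap, and the lowest library labelled C3 KO was above the highest labelled WT. Group means were 5.92 ± 0.385 and 9.11 ± 1.19 CPM (SD, n = 4). The log2 fold change was 0.62 ± 0.14 (SE), its 95% interval ran from 0.34 to 0.90, and the edgeR adjusted p was 0.00345. Whichever of the 8 libraries was left out, the call held, at log2 fold changes of 0.55 to 0.68. Without WT replicate 3, the library high in Y-linked RNA, it was 0.63 (edgeR adjusted p = 0.00995). That library itself had 6.11 CPM, inside the range of the others labelled WT. With the Y-linked level as a covariate the log2 fold change was 0.58 (edgeR adjusted p = 0.126), and with 1 surrogate variable it was 0.49 (edgeR adjusted p = 0.153), so either covariate ended the call.

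Slc5a7 lies on chromosome 17, as does C3, the gene the labels name as targeted, with 51 tested genes between them in the GRCm38 gene order. Of those 51 genes 5 were called higher and 7 lower under the C3 KO label, which is 23.5%, against 13.6% on the rest of chromosome 17 and 14.6% on other chromosomes. Among the 10 tested genes on each side of Slc5a7, 2 were called higher and 4 lower, which is 30.0%. Its 2 nearest tested neighbours towards C3 had differences of the opposite sign: St6gal2, a sialyltransferase gene, was lower by a log2 fold change of -0.35 (edgeR adjusted p = 0.0034), and Pot1b, a telomere-end protein gene, by -0.69 (edgeR adjusted p = 4.89e-06). On the other side Mrps36-ps1, a pseudogene, had a log2 fold change of 0.02 and was not called. These neighbours were named after their values were seen. The other 4 measured genes lie on other chromosomes than C3, and the part of the position of Slc5a7 in its difference was not tested.

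**Figure D2:**
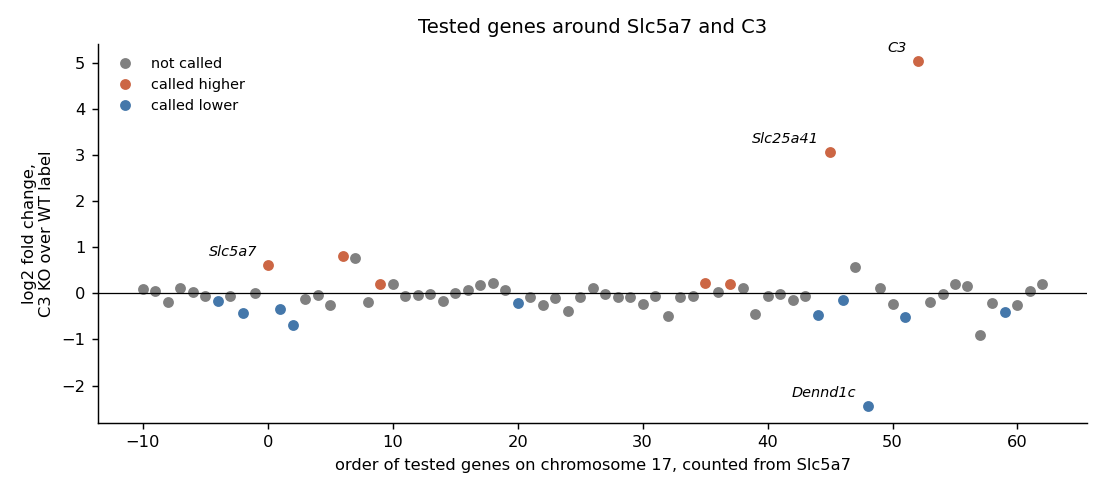
Log2 fold change, labelled C3 KO over labelled WT, of tested genes on chromosome 17 (vertical axis), in gene order counted from Slc5a7 (horizontal axis). Each point is 1 gene and its colour gives the call. Slc5a7 at 0.62 lies beside St6gal2 and Pot1b at -0.35 and -0.69, and C3 at 5.04 stands 52 genes away, near Slc25a41 and Dennd1c, the other points furthest from 0.

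Choline acetyltransferase makes acetylcholine and is the standard marker of starburst cells. Chat measured 6.41, 6.11, 7.07 and 6.88 CPM across the WT-labelled replicates 1 to 4, then 7.49, 7.39, 8.63 and 11.9 CPM across those labelled C3 KO. There was no overlap, but the spread under the C3 KO label was wide, because replicate 4 stood well above the other 3 libraries. The means were 6.62 ± 0.437 and 8.85 ± 2.10 CPM (SD, n = 4). The log2 fold change was 0.41 ± 0.15 (SE), its 95% interval ran from 0.10 to 0.73, and the edgeR p was 0.0115 before and 0.069 after adjustment. Leaving out C3 KO replicate 4 brought the log2 fold change to 0.24 (edgeR adjusted p = 0.333), and leaving out C3 KO replicate 2 to 0.49, which passed (edgeR adjusted p = 0.0421). With the Y-linked covariate it was 0.35 (edgeR adjusted p = 0.454) and with 1 surrogate variable 0.20 (edgeR adjusted p = 0.686). Chat rested on 105 to 209 reads per library. Counting error alone gives a coefficient of variation of about 9.16% at the WT-labelled depth and 7.84% at the C3 KO-labelled depth, against observed values of 6.61% and 23.7%.

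Relative to Chat within the same library, Slc5a7 gave log2 read ratios of -0.16, -0.16, -0.21 and -0.12 across WT-labelled replicates 1 to 4. Under the C3 KO label they were 0.07, 0.18, 0.19 and -0.20. Replicates 1 to 3 labelled C3 KO were above all the libraries labelled WT, and replicate 4 lay among them. The mean difference was 0.22, with an exact two-sided permutation p = 0.114 (adjusted p = 0.114 over the 2 ratios tested). The smallest p that 4 against 4 libraries allow is 0.0286.

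Acetylcholinesterase ends the signal at the synapse, and besides starburst cells other neurons, muscle and red blood cells make it. For Ache the WT-labelled replicates 1 to 4 had 65.9, 52.3, 58.8 and 50.4 CPM, and the C3 KO-labelled ones 63.0, 61.5, 63.9 and 68.2 CPM. The groups overlapped, because the library labelled WT replicate 1 exceeded 3 of the 4 labelled C3 KO. The log2 fold change was 0.17 ± 0.07 (SE), with a 95% interval of 0.02 to 0.32 and an edgeR adjusted p = 0.114. Without WT replicate 1 it was 0.25 and passed (edgeR adjusted p = 0.0116). With 1 surrogate variable the sign turned, to -0.01 (edgeR adjusted p = 0.973). The 5 measured red blood cell genes summed to 28.5 to 51.2 CPM in WT-labelled libraries and to 18.1 to 23.2 CPM in the others. The 3 measured eye muscle genes summed to at most 10.4 CPM in any library, and none was called. Acta1 had a log2 fold change of 0.41 without overlap between the labels, while Mylpf (-0.13) and Myh3 (-0.30) were below 0. The part of red blood cell and muscle RNA in the Ache values was not tested. The span of Ache overlaps a long non-coding RNA gene and a microRNA gene. That of Megf11 overlaps another long non-coding RNA gene, and that of Megf10 a pseudogene. Slc18a3 lies inside the span of Chat, on the same strand. How counting treated strand was not given in the sources used here. Reads of such partners cannot be told apart.

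Megf10, the spacing receptor that also serves glial engulfment, had the smallest p of the 5 genes. Its values were 76.8, 67.8, 78.3 and 78.8 CPM across WT-labelled replicates 1 to 4 and 93.8, 95.2, 93.5 and 98.9 CPM across C3 KO-labelled ones. The groups were far apart, with a gap wider than the range of either. Means were 75.4 ± 5.15 and 95.4 ± 2.48 CPM (SD, n = 4), and the log2 fold change of 0.34 ± 0.06 (SE) passed at an edgeR adjusted p = 0.000281. It was called in all 20 alternative settings, covariates included, with log2 fold changes of 0.28 to 0.35.

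Megf11, its paralog, measured 41.8, 39.2, 40.5 and 43.6 CPM across WT-labelled replicates 1 to 4. Under the C3 KO label the values were 45.2, 49.97, 48.9 and 48.4 CPM. All of the second group lay above the first, by a narrow margin. The means were 41.3 ± 1.88 and 48.1 ± 2.04 CPM (SD, n = 4), and the log2 fold change was 0.22 ± 0.06 (SE), with an edgeR adjusted p of 0.0192. This call depended on single libraries. It was lost when WT replicate 2 (edgeR adjusted p = 0.0749) or WT replicate 3 (0.065) was left out. The same held for 3 of the C3 KO-labelled libraries, replicate 2 (0.052), replicate 3 (0.0607) and replicate 4 (0.0626), and the call was kept without any of the other 3 libraries. It was also lost with the Y-linked level (0.146) or a surrogate variable (0.166) as a covariate. The log2 ratio of Megf11 to Megf10 reads was -0.87 ± 0.07 in WT-labelled and -0.99 ± 0.06 in C3 KO-labelled libraries (SD, n = 4). That difference of -0.12 did not pass (exact two-sided permutation p = 0.0857, adjusted p = 0.114 over the 2 ratios).

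Horizontal cells and glia also use the MEGF genes, so their markers were read beside them. Of 6 horizontal cell markers none was called higher and 1, Sept4, was called lower, at a log2 fold change of -0.22 (edgeR adjusted p = 0.0101). That is 16.7% called, near the 14.3% of all tested genes. The 6 summed to 192 to 230.35 CPM in WT-labelled libraries and to 169 to 189 CPM in C3 KO-labelled ones. The direction was not shared by the list, in which Onecut1 (0.40) and Calb1 (0.12) had log2 fold changes above 0 and the other 4 genes below 0. The mean log2 level of the 6, relative to the WT-labelled mean, overlapped, at -0.19 to 0.25 and -0.19 to -0.01. Of 8 markers of Mueller glia and astrocytes, Gfap (log2 fold change 0.58, edgeR adjusted p = 0.00943), an intermediate filament of astrocytes, and Pdgfra (0.41, edgeR adjusted p = 0.000977), a growth factor receptor of retinal astrocytes, were called higher and none lower, which is 25.0% called, against 14.3% of all tested genes. The list was split. Of the genes that mark astrocytes, S100b (0.37) and Pax2 (0.71) also had log2 fold changes above 0, without passing. The Mueller glia genes Glul (-0.11), Slc1a3 (-0.15), Rlbp1 (-0.24) and Aqp4 (-0.32) were all below 0, and none passed. Several genes of these 2 lists were named after their values were seen. The summed levels of the 8 overlapped between the labels, at 833 to 918 CPM and 861 to 901 CPM. The part of horizontal cell and glial RNA in the Megf10 and Megf11 differences was not tested.

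Levels of different genes were compared on the authors' RPKM values, which scale reads by gene length and library size. Ache was the highest of the 5, with WT-labelled and C3 KO-labelled means of 12.4 and 13.9 RPKM, followed by Megf10 (9.82 and 12.3 RPKM), Megf11 (3.65 and 4.22 RPKM), Chat (2.40 and 3.17 RPKM) and Slc5a7 (1.17 and 1.77 RPKM). Neighbours in this order did not overlap over the 4 libraries of a label, with 1 exception. Under the C3 KO label Chat reached 4.24 RPKM in replicate 4, inside the Megf11 range of 3.97 to 4.41 RPKM.

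**Figure D3:**
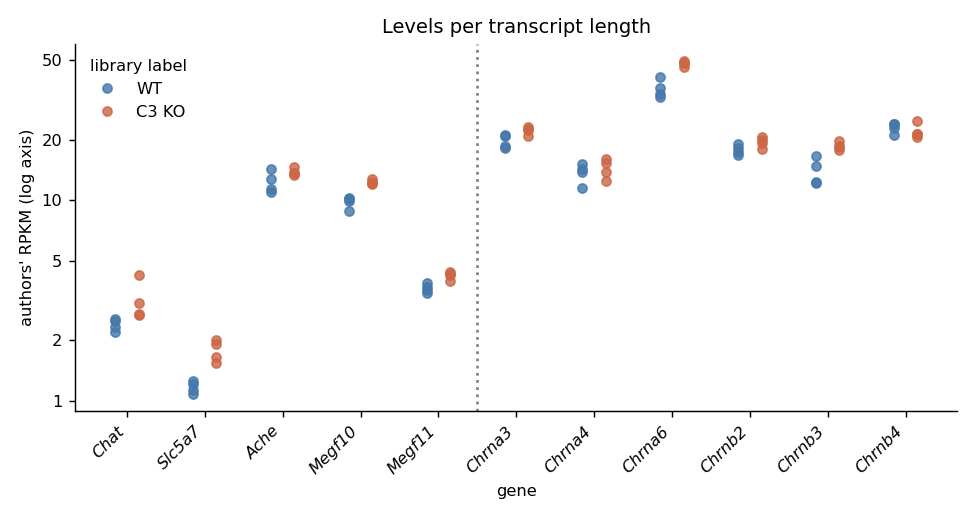
The authors' RPKM (vertical log axis) of the 5 measured genes, left of the dotted line, and of 6 nicotinic receptor subunit genes, right of it. Each point is 1 library, coloured by label. The receptor subunits shown lie above Chat and Slc5a7 in every library, with Chrna6 the highest at group means of 36.1 and 48.3 RPKM.

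The genes nearest to Chat over the 8 libraries, among 15018 genes whose mean reached 1 CPM, were Chac1, Dfna5, 5033430I15Rik, Gm17568 and Matk. Likeness was the root mean square difference between log2 CPM profiles, each centred on its own mean, and was 0.09 to 0.10 for these 5 genes. Slc5a7 ranked 102 at 0.16, Megf10 ranked 314 at 0.18, Megf11 ranked 1217 at 0.21 and Ache ranked 1575 at 0.22. Nearness over 8 libraries is a description of these profiles, and genes of very different levels share it.

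Acetylcholine acts on nicotinic channels, pentamers of alpha and beta subunits, and on muscarinic receptors coupled to G proteins. Of 21 listed receptor genes 15 were tested, of which 3 were called higher, 1 lower and 11 not called, with a median log2 fold change of 0.15. That is 26.7% called, against 14.3% of all tested genes. Chrna6 and Chrnb3, subunits made by ganglion cells, rose from 104 ± 11.2 to 141 ± 4.13 CPM (SD, n = 4; log2 fold change 0.43, edgeR adjusted p = 5.87e-05) and from 64.2 ± 10.04 to 85.9 ± 4.08 CPM (0.42, edgeR adjusted p = 0.00343). Chrna5, an accessory subunit, fell from 19.8 ± 1.34 to 13.7 ± 1.55 CPM (SD, n = 4; log2 fold change -0.52, edgeR adjusted p = 0.00112). None of the 3 overlapped between the labels, and each call was kept in 8 of 8 fits that left out 1 library. Chrnb3 lost its call with 1 surrogate variable, at a log2 fold change of 0.20, and Chrna5 with the Y-linked covariate.

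The receptor of retinal waves is built from Chrna3 and Chrnb2 subunits. Chrna3 was called at a log2 fold change of 0.19 (edgeR adjusted p = 0.048), with 61.3 ± 4.96 and 69.9 ± 3.43 CPM (SD, n = 4). Leaving out single libraries kept that call in 2 of 8 fits, the highest edgeR adjusted p being 0.172, and it was not made by DESeq2 (adjusted p = 0.0531). The Y-linked covariate (log2 fold change 0.20, edgeR adjusted p = 0.275) and 1 surrogate variable (0.07, edgeR adjusted p = 0.682) also ended it. Of the 20 alternative settings 4 kept the Chrna3 call. Chrnb2 had a log2 fold change of 0.13 (edgeR adjusted p = 0.133), Chrna4 of 0.08 and Chrnb4 of -0.05, and none of these passed. Among muscarinic receptors the G-protein coupled Chrm1 stood at 2.54 ± 0.632 and 3.62 ± 0.337 CPM (SD, n = 4) without passing (edgeR adjusted p = 0.106). Chrm2, the autoreceptor of cholinergic neurons, stood at 3.07 and 2.80 CPM. Chrm5 had the highest estimate of the list, a log2 fold change of 1.08 at means of 0.452 and 0.980 CPM, and did not pass (edgeR adjusted p = 0.111).

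**Figure D4:**
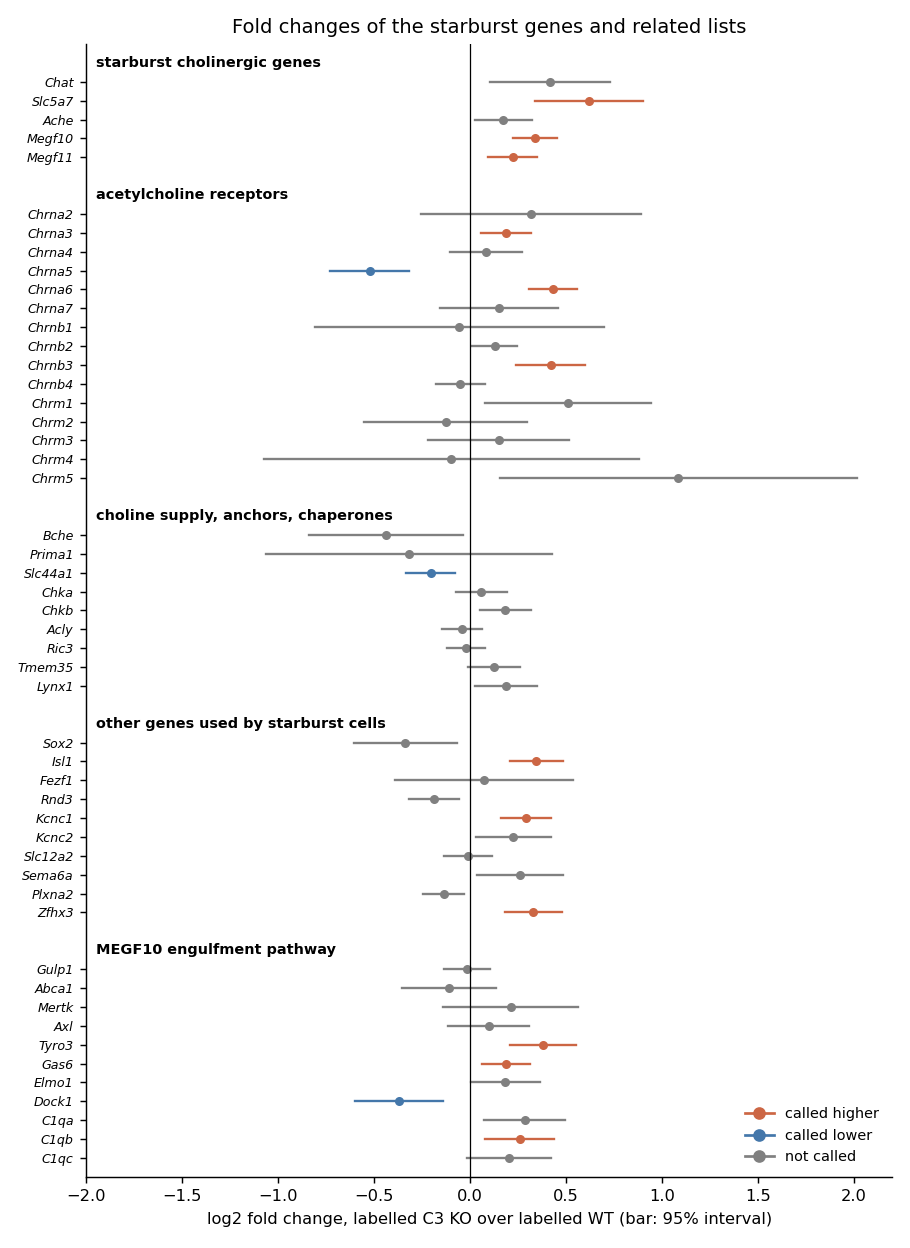
Log2 fold change, labelled C3 KO over labelled WT (horizontal axis), for the 5 measured starburst genes and the genes of 4 related lists. Points are estimates, bars are 95% intervals without adjustment for many genes, and colour gives the call at an edgeR adjusted p below 0.05. The 5 starburst genes all lie above 0. The receptor and engulfment lists hold calls of both signs, with Chrna5 the lowest of the called genes at -0.52. The other genes used by starburst cells hold only higher calls, and the choline supply list only 1 lower call.

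Genes that supply choline, anchor cholinesterase or help nicotinic receptors fold gave 1 lower call, no higher call and 8 not called among 9 tested, with a median log2 fold change of -0.02. That is 11.1% called, near the 14.3% of all tested genes. Slc44a1, a choline transporter of many cell types, fell by 0.21 on the log2 scale (edgeR adjusted p = 0.0275), a call kept in 3 of 8 fits that left out 1 library. Bche, the related butyrylcholinesterase, stood at 4.52 ± 0.913 and 3.32 ± 0.621 CPM (SD, n = 4; edgeR adjusted p = 0.133), and Prima1, the membrane anchor of acetylcholinesterase in neurons, had a log2 fold change of -0.32 (edgeR adjusted p = 0.612). The choline kinase Chkb had 0.18 (edgeR adjusted p = 0.0571), its relative Chka 0.06, and the receptor chaperones Tmem35 and Ric3 had 0.12 and -0.02.

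Among 10 other genes that starburst cells use, 3 were called higher and none lower, with a median log2 fold change of 0.15, where 8.33% of all tested genes were called higher and 5.98% lower. Isl1, a LIM homeodomain factor of starburst, ganglion and bipolar cells, rose from a mean of 75.3 ± 8.22 to 95.7 ± 5.14 CPM (n = 4, SD), at an edgeR adjusted p = 0.00124. Kcnc1, a fast potassium channel, rose by a log2 fold change of 0.29 (edgeR adjusted p = 0.00335), and the homeobox gene Zfhx3 by 0.33 (edgeR adjusted p = 0.00366). None of these 3 genes overlapped between the labels. All 3 lost their call with 1 surrogate variable, in that order at edgeR adjusted p-values of 0.0826, 0.322 and 0.321 and log2 fold changes of 0.24, 0.14 and 0.16. Kcnc1 also lost it with the Y-linked covariate (edgeR adjusted p = 0.0604), and Zfhx3 in limma on log2 RPKM with either pseudocount (adjusted p = 0.068 and 0.0728). Fezf1 and Rnd3, which mark starburst cells of the ON and OFF mosaics, had log2 fold changes of 0.07 (edgeR adjusted p = 0.871) and -0.19 (edgeR adjusted p = 0.0503). Sox2, a factor of starburst cells, Mueller glia and progenitors, had -0.34 (edgeR adjusted p = 0.0908). The guidance pair of the starburst arbors, Sema6a and its receptor Plxna2, had 0.26 and -0.14, and neither passed.

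Of 11 listed engulfment genes 3 were called higher and 1 lower, with a median log2 fold change of 0.19. That is 36.4% called, against 14.3% of all tested genes. Tyro3, a receptor tyrosine kinase of phagocytosis, rose by 0.38 on the log2 scale (edgeR adjusted p = 0.00358) and kept its call without any single library, but not with 1 surrogate variable (log2 fold change 0.20, edgeR adjusted p = 0.296). Its ligand gene Gas6 (0.19, edgeR adjusted p = 0.0388) kept the call in 1 of 8 such fits, the C1q chain C1qb (0.26, edgeR adjusted p = 0.047) in 2 of 8, and the lower Dock1 (-0.37, edgeR adjusted p = 0.0264), a regulator of the engulfing cell's actin, in 5 of 8. Gulp1, the adaptor that binds MEGF10, had -0.02 (edgeR adjusted p = 0.884), and Abca1 had -0.11 (edgeR adjusted p = 0.562).

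Other inhibitory amacrine and ganglion cell genes gave the setting of these values. Of 15 inhibitory amacrine genes 5 were called higher and none lower, with a median log2 fold change of 0.16, where 8.33% of all tested genes were called higher. They included Pax6 (0.27, edgeR adjusted p = 0.00118), a factor shared by amacrine and ganglion cells, Gad1 (0.34, edgeR adjusted p = 0.00379), the GABA-making enzyme that starburst cells also use, and the calcium-binding protein gene Calb2 (0.31, edgeR adjusted p = 0.00239). The list did not move as a whole, and 10 of its genes were not called. Among those, Gad2 (0.03) and Slc32a1 (0.02) were near 0. Below 0 were Slc6a9 (-0.23), Prdm13 (-0.23), Barhl2 (-0.03) and Ptf1a (-0.91, at low WT-labelled and C3 KO-labelled means of 1.28 and 0.67 CPM). These uncalled genes were named after their values were seen. Of 11 ganglion cell genes 6 were called higher and none lower, which is 54.5% against the same 8.33%, with a median of 0.28, among them Pou4f2 (0.43) and Slc17a6 (0.36). Each of these 5 calls was lost with a covariate. With 1 surrogate variable Gad1, Calb2, Slc17a6 and Pou4f2 no longer passed, at log2 fold changes of 0.30, 0.13, 0.15 and 0.17, and with the Y-linked covariate neither Pou4f2 (0.46) nor Pax6 (0.24) did. The difference between these lists and the starburst genes was not tested.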

How the data were processed

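Per the labels' protocols, poly(A) RNA from retina was made into directional NEBNext Ultra II libraries. The submitters' processing notes name STAR, HTSeq and the builds mm9 and NCBIM37, without versions. The deposited counts are whole reads per gene without normalization, and each listed gene has at least 15 reads in at least 1 library. The authors' deposited log2 RPKM values equal the log2 of the count plus 2 reads, scaled by library size, less a constant per gene and per library, to within 0.0136. They were turned to a linear scale for levels between genes.

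The count analysis used edgeR 4.0.16 under R 4.3.3: expression filter (15850 genes kept, 259 left out), TMM scaling, and a robust quasi-likelihood test, with no covariate, of the 4 C3 KO-labelled against the 4 WT-labelled libraries. Calls were made where a gene's p, adjusted by Benjamini-Hochberg over all tested genes, was below 0.05, and SE and 95% intervals came from the F statistic. The procedure was run on simulated counts with known changes, without the sex-linked and pigment epithelium shifts seen here. The outcome of that run is not used for any call above. Alternatives used RLE or upper quartile scaling, other filters, non-robust dispersion, DESeq2 1.42.0, limma 3.58.1 (voom, and on log2 RPKM with a pseudocount of 1 or 0.1), the replicate number as a block, a Y-linked covariate, 1 surrogate variable (sva 3.50.0) and each library left out. The covariates correlated with the label at 0.732 and 0.678.

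Same-numbered libraries did not deviate together. Counting error limits Chat and Slc5a7 most. The genes, lists and rules were chosen with earlier results of these data known. The named genes are the starburst genes, C3, genes of the 4 related lists (called ones first, then the highest and lowest), at most 4 per cell type marker list by smallest p, and the 5 genes nearest to Chat by profile. Others were named after their values were seen, where the text says so. Gene order and sequences came from RefSeq on GRCm38.p6, a later build than the counts, matched by symbol, with 14001 of 16109 symbols matching a current one and 1575 an older one. A planned ratio of Slc18a3 to Chat was not computed.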

Additional observations from a re-analysis of the deposited data

Results flagged for a closer look

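Among 106 groups of 4 libraries checked, over the starburst genes, C3, the related lists and both read ratios, 2 held a library far from the other 3, where chance flags about 1 in 20 groups. Both were in the library labelled C3 KO replicate 2. Chrnb4 stood there at 86.1 CPM, against 73.1 to 75.2 CPM in the other libraries labelled C3 KO. Gas6 stood at 60.6 CPM, against 54.9 to 55.3 CPM. Without that library Gas6 had a log2 fold change of 0.15 and lost its call (edgeR adjusted p = 0.12).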

How the results depend on the processing

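Scaling, filters, dispersion, DESeq2 and limma-voom kept 3 of the 5 starburst genes called, and either RPKM pseudocount kept 2. With the Y-linked covariate 1 was called, as with 1 surrogate variable, and in both it was Megf10. Leaving out 1 library gave 2 to 4 starburst genes called, 1305 to 2543 of all genes and 7 to 17 of the related lists. Over all genes 2269 were called, against 530 with the Y-linked covariate, 453 with the surrogate variable, and 1509 and 1502 on log2 RPKM with a pseudocount of 1 or 0.1. The related lists had 12 genes called, against 5 and 3 with the covariates. Slc5a7 had log2 fold changes of 0.58 and 0.49 with the covariates, and Megf11 0.25 and 0.22. On log2 RPKM Megf11 had 0.17 and 0.21, without passing. When 1 library was left out, Chat ran from 0.24 to 0.49, Ache from 0.11 to 0.25 and Megf11 from 0.19 to 0.25. The sign turned with the surrogate variable for Ache (-0.0093), Chrna4 (-0.16) and Ric3 (0.0002), with the Y-linked covariate for Gulp1 (0.059), and when 1 library was left out for Chrna4 (-0.0019 to 0.15), Fezf1 (-0.031 to 0.18) and Gulp1 (-0.063 to 0.025), none of them called. The cause was not tested. With the replicate number as a block 2400 genes, 3 starburst genes and 14 of the related lists were called. The numbers do not pair the libraries, since same-numbered libraries correlated at -0.06 to 0.09 over genes.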
